A study of Homo sapiens with 14 samples.

Results

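The genes described here are 32 interferon-stimulated genes outside the OAS family, chosen by symbol from the 62699 genes of a count table, and all 32 were found in it. It covers 14 bulk RNA-seq libraries made from human cancer lines. Libraries treated with siRNA against ADAR, numbered 1 and 2 in each line, are set against 1 control siRNA library in MDA-MB-231 and BT-549 (both triple-negative breast cancer), NCI-H1395 (labelled lung adenocarcinoma) and AGS (labelled gastric cancer). In MDA-MB-231, 1 library with NOP14 overexpression is set against 1 control library named PCDH. No other allele, drug or interferon treatment is named in the labels, and each line is an established culture. The labels call the numbered libraries replicates but do not say that they come from separate cultures or which siRNA each received, so every p-value measures only the spread between these libraries.

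Interferons are secreted by cells that sense foreign or misplaced nucleic acid, and they act on their own source and its neighbours through receptors, the kinases JAK1 and TYK2, and a complex that includes STAT2 and IRF9. This complex binds a DNA element called the interferon-stimulated response element (ISRE) near the start of its target genes. The targets block viral entry, translation, replication and release, and many cancer cell lines express some of them without added interferon. ADAR deaminates adenosines in double-stranded RNA, and in some cancer cells its loss leaves RNA that the sensor IFIH1 binds, which starts interferon production. Knockdown of ADAR in these lines therefore asks whether the interferon-stimulated genes respond.

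Library totals ran from 13338338 to 27828376 counts. In MDA-MB-231, ADAR stood at 99.0 and 104 CPM (counts scaled to library size, with TMM factors over the 14 libraries) after ADAR siRNA, against 313 CPM after control siRNA, so 31.7% and 33.3% remained. BT-549 kept 13.0% and 11.5% of the control level, NCI-H1395 kept 10.7% and 11.5%, and AGS kept 17.1% and 23.6%. NOP14 stood at 856 CPM in the NOP14 library and 130.4 CPM in the PCDH library. Plasmacytoid dendritic cell markers reached at most 2 counts in any library, and leukocyte markers at most 186 counts, a value reached by CD14 in the PCDH library. Of the endothelial markers, VWF reached at most 33 counts and PECAM1 at most 354 counts, in MDA-MB-231. The lung markers NKX2-1 and SFTPB had 2 and 0 counts in the NCI-H1395 control, so the defining lung markers were absent or nearly absent there. The mesenchymal marker VIM had 44594 counts there and 63 counts in the AGS control. The epithelial markers KRT18, KRT8, EPCAM and CDH1 had 10917, 3106, 6 and 0 counts in the NCI-H1395 control. They had 30941, 34170, 6734 and 666 counts in the AGS control. The stomach markers TFF1, TFF2 and CLDN18 had 40, 0 and 7 counts in the AGS control. In the MDA-MB-231 control siRNA library these stomach markers had 52, 90 and 12 counts.

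The upstream sequences of many of the genes hold the core of the ISRE. The genes were listed as interferon-stimulated, so such matches are not independent of their choice. Windows of 300 bases around the start site, most of them upstream (RefSeq, GRCh38.p14), were at hand for 27 of the 32 genes; MX2, IFIT2, TRIM22, IRF7 and USP18 had none. The core of the ISRE, searched as GAAA followed after any 2 bases by another GAAA (or TTTC, any 2 bases, TTTC, for the opposite strand), occurred in 20 of the 27 genes (74.1%), against 4.38% of all 27305 gene symbols with a window. The gamma-activated sequence core TTCNNNGAA occurred in 8 of the 27 (29.6%), against 9.38% of all symbols. The windows of IFI35, HERC6, CMPK2, SAMD9L, STAT2, IRF9 and XAF1 held no ISRE core. The matches are a description of letters and not of bound sites. A few are shown because they belong to genes whose levels are followed below, with the matched core in capitals and each sequence read 5′ to 3′ on the strand of its gene.

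ISG15 (chr1:1013380-1013409, + strand): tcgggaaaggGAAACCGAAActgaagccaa
IFIT1 (chr10:89392510-89392539, + strand): cactttccccTTTCGGTTTCcctaggtttc
RSAD2 (chr2:6877622-6877651, + strand): ctgtttcaacTTTCAGTTTCacatgtggaa
IFI27 (chr14:94110618-94110647, + strand): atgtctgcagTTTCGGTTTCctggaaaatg
IFI44L (chr1:78620274-78620303, + strand): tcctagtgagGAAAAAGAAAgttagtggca
LGALS3BP (chr17:78979962-78979991, - strand): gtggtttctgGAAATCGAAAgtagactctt
DTX3L (chr3:122564322-122564351, + strand): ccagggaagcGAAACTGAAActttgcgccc
PARP9 (chr3:122564322-122564351, - strand): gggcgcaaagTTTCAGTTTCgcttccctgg

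DTX3L and PARP9 are head-to-head neighbours, and the last lines above are the same 30 bases read on opposite strands, so a single element lies in both windows. The 30 bases of IFI44L occur again in its window at chr1:78620365-78620394. The core in ISG15 overlaps another match, GAAAGGGAAA, and the core in IFI27 overlaps a gamma-activated sequence core, TTCCTGGAA.

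The level of these genes in the control siRNA libraries differed widely between the lines. Summed over the 32 genes, the control siRNA libraries held 1458 TPM (counts scaled by exon length and by library) in MDA-MB-231, 6614 TPM in BT-549, 5698 TPM in NCI-H1395 and 7753 TPM in AGS. MDA-MB-231 had the lowest level of the 4 controls for 20 of the 32 genes and the highest for 1, BST2. How often it was the lowest over all genes was not counted. These ranks depend on the control library, since the PCDH library of MDA-MB-231 held 2353 TPM. With PCDH, LGALS3BP (609 TPM) would stand above AGS (533 TPM), and IFIT3 (133 TPM) above BT-549 (111 TPM). BST2 would stay the highest (611 TPM). An F test over the control libraries, which borrows its spread from the ADAR siRNA pairs, called 23 of the 32 genes different between lines (edgeR adjusted p under 0.05), where 50.5% of all genes tested were called. In bulk libraries fewer cells that express a gene and less RNA per cell cannot be told apart. All 32 genes passed the filter on low counts in every fit.

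**Figure D1:**
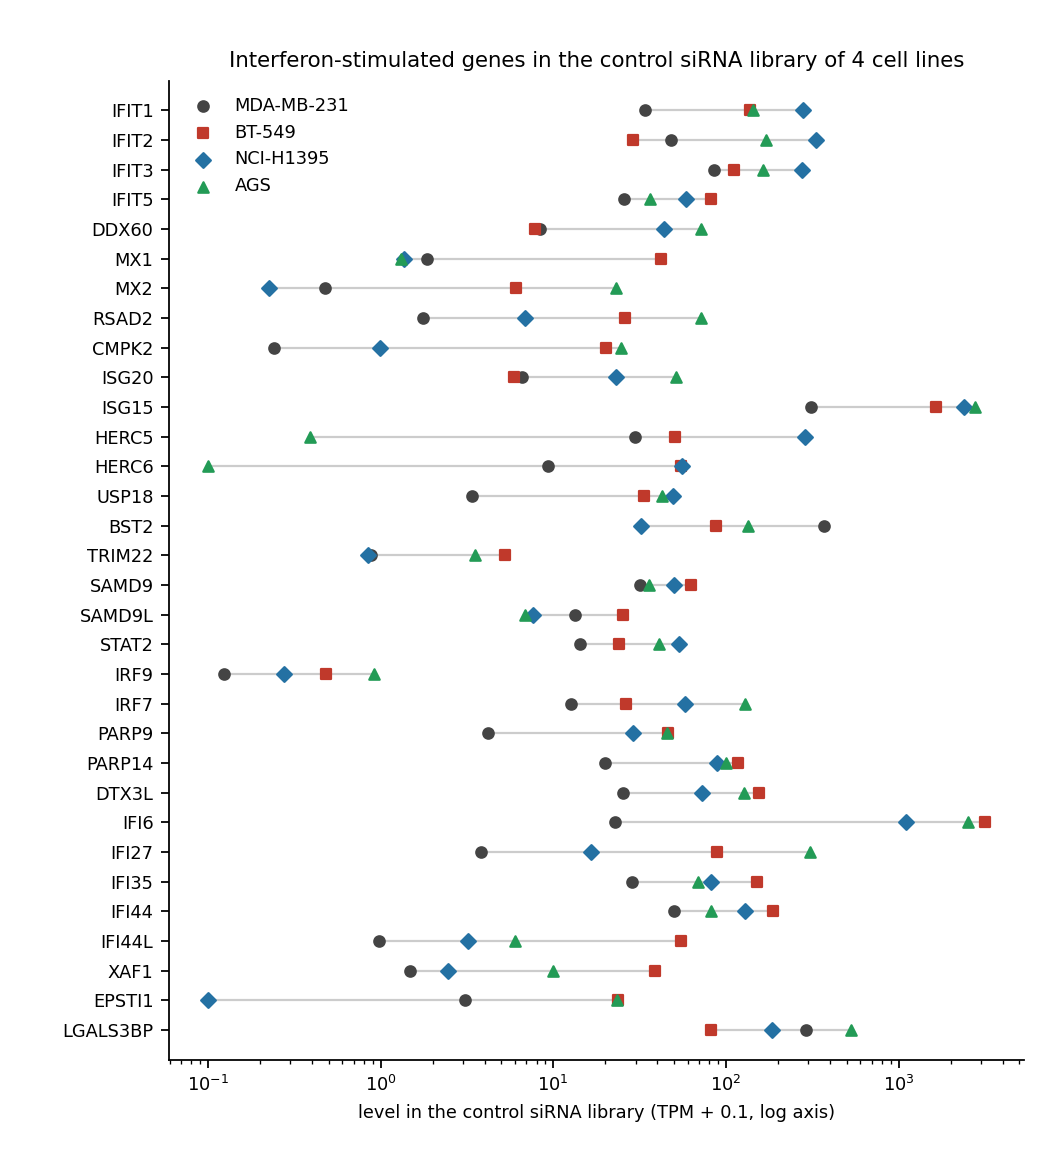
Level of each gene in the control siRNA library of 4 cell lines, 1 point a library, in TPM plus 0.1 on a log axis; the grey bar joins the lowest and the highest line. MDA-MB-231 is the lowest point for 20 of 32 genes, and HERC6 in AGS and EPSTI1 in NCI-H1395 sit at 0 TPM.

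ISG15, a ubiquitin-like protein that is secreted and also joined to other proteins, was the highest of the genes in NCI-H1395 and AGS. It stood at 313 TPM in MDA-MB-231, 1652 TPM in BT-549, 2376 TPM in NCI-H1395 and 2772 TPM in AGS (F test, edgeR adjusted p = 0.10). Its ligase HERC5 stood at 29.7 TPM in MDA-MB-231, 50.7 TPM in BT-549, 286 TPM in NCI-H1395 and 0.290 TPM in AGS. The neighbouring relative HERC6 had 9.27 TPM in MDA-MB-231, 55.1 TPM in BT-549, 55.5 TPM in NCI-H1395 and 0 counts in AGS, which allows up to 3 counts. The line with the most ISG15 RNA thus had almost no RNA of either HERC gene. HERC5 was called lower in AGS than in each other line (MDA-MB-231 over AGS 7.09 ± 1.21 on the log2 scale, edgeR adjusted p = 0.00562; errors after ± of log2 changes are standard errors). USP18, the protease that removes ISG15, stood at 3.31 TPM in MDA-MB-231, 33.5 TPM in BT-549, 49.2 TPM in NCI-H1395 and 42.8 TPM in AGS.

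The IFIT genes encode RNA-binding proteins with tetratricopeptide repeats, and IFIT1 holds RNA whose cap lacks a methyl group. The lines differed most for IFIT2, 11.6-fold between highest and lowest, and 8.30-fold for IFIT1, while IFIT3 and IFIT5 spanned 3.24-fold and 3.20-fold. IFIT3 stood at 85.2 TPM in MDA-MB-231, 111 TPM in BT-549, 276 TPM in NCI-H1395 and 164 TPM in AGS (F test, edgeR adjusted p = 0.582). None of the 4 IFIT genes was called by the F test, with adjusted p-values of 0.112 to 0.582 by edgeR. The helicase DDX60 was called; it stood at 8.25 TPM in MDA-MB-231, 7.79 TPM in BT-549, 43.8 TPM in NCI-H1395 and 71.8 TPM in AGS.

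The dynamin-like GTPases MX1, which blocks influenza viruses, and MX2, which blocks nuclear entry of HIV, lie side by side on chromosome 21 and did not share an order of lines. MX1 stood at 1.77 TPM in MDA-MB-231, 41.9 TPM in BT-549, 1.26 TPM in NCI-H1395 and 1.22 TPM in AGS. MX2 stood at 0.374 TPM in MDA-MB-231, 6.02 TPM in BT-549, 0.126 TPM in NCI-H1395 and 23.0 TPM in AGS. BT-549 was above AGS for MX1 by 5.27 ± 0.62 and below it for MX2 by -1.77 ± 0.40 (log2, edgeR adjusted p = 2.27e-05 and 0.00187).

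RSAD2 (viperin), which makes a nucleotide that ends viral RNA chains, stood at 1.65 TPM in MDA-MB-231, 25.8 TPM in BT-549, 6.77 TPM in NCI-H1395 and 72.0 TPM in AGS. Its neighbour CMPK2, a mitochondrial nucleotide kinase on the opposite strand, stood at 0.142 TPM in MDA-MB-231, 20.0 TPM in BT-549, 0.889 TPM in NCI-H1395 and 24.7 TPM in AGS. The exon annotations of RSAD2 and CMPK2 share 6.20% and 8.0% of their bases, and whether strand was used in the counting was not given in the sources used here. ISG20, an RNA exonuclease, stood at 6.46 TPM in MDA-MB-231, 5.79 TPM in BT-549, 23.1 TPM in NCI-H1395 and 51.5 TPM in AGS.

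Among proteins that hold back viruses, BST2 (tetherin, which keeps budding particles on the cell surface) was the exception in which MDA-MB-231 led. It stood at 371 TPM in MDA-MB-231, 87.0 TPM in BT-549, 32.1 TPM in NCI-H1395 and 133 TPM in AGS, and MDA-MB-231 was above NCI-H1395 by 4.09 ± 0.88 (log2, edgeR adjusted p = 0.0158). The ubiquitin ligase TRIM22 had 0.781 TPM in MDA-MB-231, 5.19 TPM in BT-549, 0.750 TPM in NCI-H1395 and 3.43 TPM in AGS. SAMD9L, which with SAMD9 restricts poxviruses, had 13.3 TPM in MDA-MB-231, 25.2 TPM in BT-549, 7.55 TPM in NCI-H1395 and 6.77 TPM in AGS. SAMD9 ran from 31.5 TPM in MDA-MB-231 to 62.8 TPM in BT-549 and was not called.

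Of the transcription factors, STAT2 stood at 14.3 TPM in MDA-MB-231, 23.9 TPM in BT-549, 53.5 TPM in NCI-H1395 and 40.9 TPM in AGS. IRF7, which drives type I interferon genes, stood at 12.6 TPM in MDA-MB-231, 26.4 TPM in BT-549, 58.0 TPM in NCI-H1395 and 129 TPM in AGS. IRF9, the DNA-binding part of the STAT complex, had only 0 to 31 counts in any of the 14 libraries; 27.2% of its annotated exon bases are shared with other genes, and its values are too few to follow. The ADP-ribosylating pair PARP9 and PARP14 and the ubiquitin ligase DTX3L, which binds PARP9, were all called. PARP9 stood at 4.09 TPM in MDA-MB-231, 46.1 TPM in BT-549, 29 TPM in NCI-H1395 and 45.7 TPM in AGS. DTX3L stood at 25.2 TPM in MDA-MB-231, 155 TPM in BT-549, 72.6 TPM in NCI-H1395 and 128 TPM in AGS. PARP14 stood at 19.8 TPM in MDA-MB-231, 117 TPM in BT-549, 89.0 TPM in NCI-H1395 and 99.4 TPM in AGS.

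IFI6, a small membrane protein that protects cells from flavivirus replication, differed strongly between lines. It stood at 22.8 TPM in MDA-MB-231, 3181 TPM in BT-549, 1097 TPM in NCI-H1395 and 2528 TPM in AGS, and MDA-MB-231 lay below BT-549 by -6.86 ± 0.79 (log2, edgeR adjusted p = 0.000303). A same-strand non-coding RNA shares 23.1% of the annotated exon bases of IFI6. IFI27, a related membrane protein, stood at 3.72 TPM in MDA-MB-231, 88.6 TPM in BT-549, 16.5 TPM in NCI-H1395 and 305 TPM in AGS. IFI44L, of little-known function, stood at 0.885 TPM in MDA-MB-231, 54.6 TPM in BT-549, 3.10 TPM in NCI-H1395 and 5.95 TPM in AGS.

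Its neighbour IFI44 ran from 49.7 TPM in MDA-MB-231 to 186 TPM in BT-549. IFI35, which binds the adaptor NMI, stood at 28.6 TPM in MDA-MB-231, 152 TPM in BT-549, 81.7 TPM in NCI-H1395 and 69.1 TPM in AGS. XAF1 is an antagonist of the apoptosis inhibitor XIAP. Its level was 1.39 TPM in MDA-MB-231, 38.6 TPM in BT-549, 2.36 TPM in NCI-H1395 and 9.84 TPM in AGS. An opposite-strand gene shares 38.3% of the exon bases of XAF1. EPSTI1 stood at 2.97 TPM in MDA-MB-231, 23.7 TPM in BT-549, 0 counts in NCI-H1395 and 23.3 TPM in AGS. LGALS3BP, a secreted glycoprotein that binds galectins, stood at 290.1 TPM in MDA-MB-231, 82.1 TPM in BT-549, 185 TPM in NCI-H1395 and 533 TPM in AGS.

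Between pairs of lines, MDA-MB-231 was called lower than BT-549 for 14 of the 32 genes (12.2% of all genes) and higher for 1 (13.6%), LGALS3BP. It was called lower than NCI-H1395 for 10 (11.8% of all genes) and higher for 5 (11.5%), and lower than AGS for 15 (14% of all genes) and higher for 3 (15.6%), which were HERC5, HERC6 and SAMD9L. BT-549 was called higher than NCI-H1395 for 8 (8.58%) and lower for 2 (11.2%), DDX60 and ISG20. Against AGS, BT-549 was called higher for 5 (14.6%) and lower for 5 (13.7%), and NCI-H1395 higher for 2 (14.7%) and lower for 7 (11.9%). The counts against MDA-MB-231 were thus on the low side of the pair, while all genes tested were split about evenly.

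With ADAR siRNA, no interferon-stimulated gene passed the test over the 4 lines, in which the libraries of a line were summed and line was a term (0 of 32 by edgeR; 0.0182% of all genes called). At an unadjusted p under 0.05, 3 were lower (5.07% of all genes) and 0 higher (6.42%) by the same test. They were IFIT3 (-0.37 ± 0.12, edgeR adjusted p = 0.265), LGALS3BP (-0.53 ± 0.17, 0.280) and ISG15 (-0.38 ± 0.13, 0.281), all as log2 changes. DESeq2 called 0 of the 32 as well (676 of all genes). In direction, 22 of the 32 lay below 0, against 42.7% of all genes, and the median was -0.08, against 0.06 for all genes. LGALS3BP was called without MDA-MB-231 (-0.72 ± 0.14, edgeR adjusted p = 0.0413), where 75 of all genes were called. The test of whether the response differed between lines called 0 of 32 by edgeR (0.0292% of all genes). At an unadjusted p under 0.05 it gave 3 (3.37% of all genes), which were MX2, CMPK2 and HERC6. In this test DESeq2 also called 0 of 32 (43 of all genes). CMPK2 in MDA-MB-231 and NCI-H1395 and HERC6 in AGS rest on few counts, given below.

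**Figure D2:**
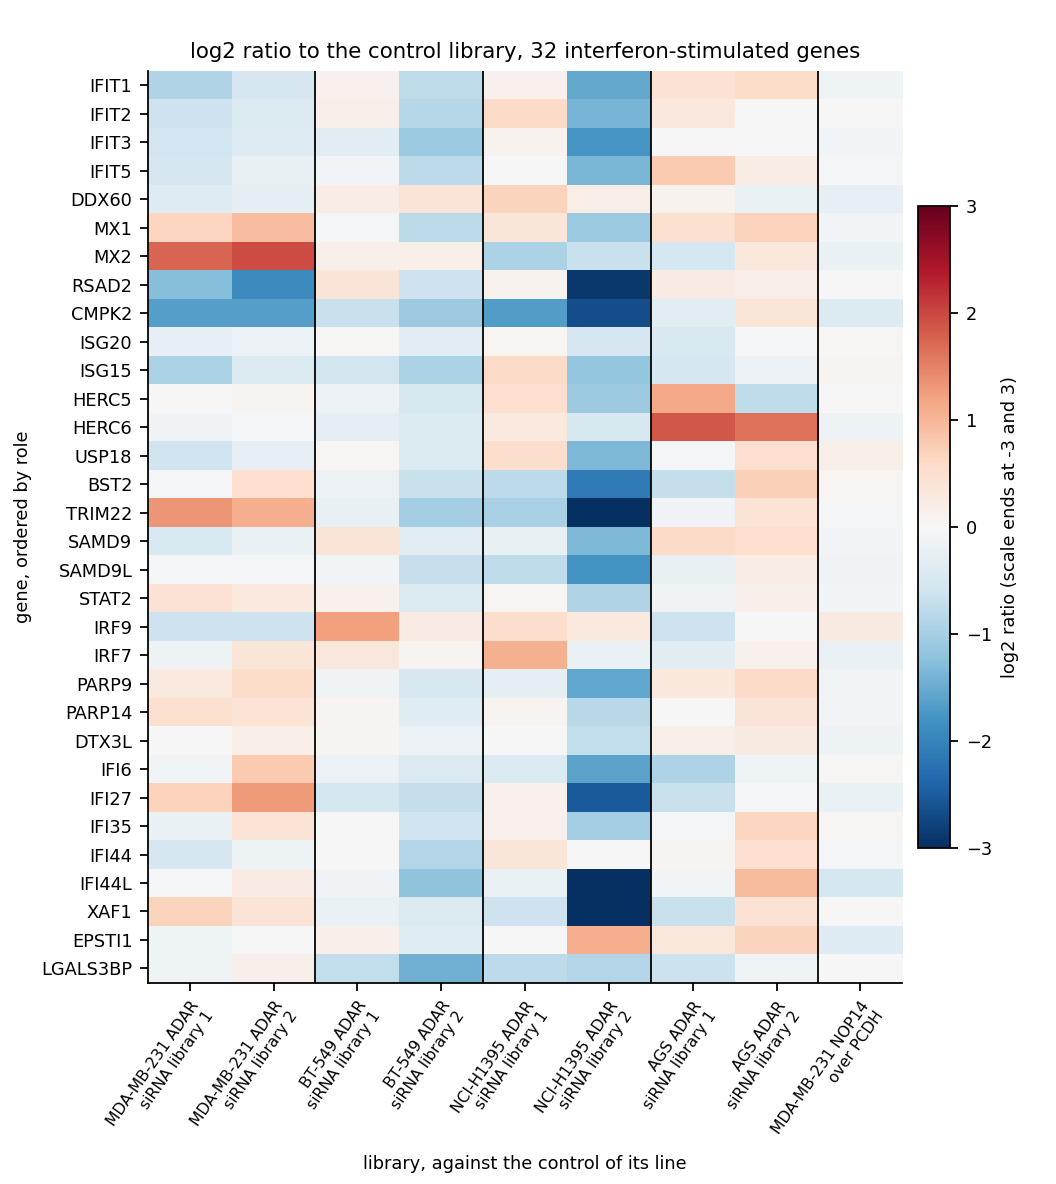
log2 ratio of TMM-scaled CPM (prior count 2) of each ADAR siRNA library to the control siRNA library of its line, and of NOP14 to PCDH, for 32 genes ordered by role; red is higher and blue lower, and the colour scale ends at -3 and 3. The column of NCI-H1395 library 2 is mostly blue, with a median of -1.25, and the NOP14 column is close to white.

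The libraries of a line did not give the same picture. Their ratios to the control share that control, so each library is described on its own. The median log2 ratio of the 32 genes was -0.13 in MDA-MB-231 library 1 and 0.04 in library 2, with 24 and 16 genes below the control (47.6% and 48.5% of all genes). In BT-549 it was -0.03 and -0.53, with 17 and 28 genes below (43.6% of all genes in both). In NCI-H1395 it was 0.06 and -1.25, with 13 and 28 genes below (45.4% and 45.2%). In AGS it was -0.03 and 0.29, with 17 and 9 genes below (46.9% and 41.8%). NCI-H1395 library 2 was at least 2-fold under its control for 20 of the 32 genes, where 6.44% of all genes were.

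NCI-H1395 held the lowest of these values. IFIT1 had 331 and 105 CPM in ADAR siRNA libraries 1 and 2, against 303 CPM in the control siRNA library. IFIT2 had 501 and 129 CPM with ADAR siRNA, against 338 CPM with control siRNA, and IFIT3 had 352 and 96.9 CPM with ADAR siRNA, against 329 CPM with control siRNA. Library 1 was at or above the control and library 2 well below it for all of these. IFIT5 had 59.9 and 23.1 CPM with ADAR siRNA, against 60.0 CPM with control siRNA. ISG15 had 722 and 217 CPM with ADAR siRNA, against 484 CPM with control siRNA. HERC5, its ligase, had 456 and 149.8 CPM with ADAR siRNA, against 321 CPM with control siRNA. These genes of the ISG15 system showed the same arrangement, and so did USP18, with 68.4 and 18.5 CPM with ADAR siRNA, against 47.3 CPM with control siRNA. RSAD2 had 9.72 and 1.12 CPM with ADAR siRNA, against 9.01 CPM with control siRNA. IFI27 had 17.5 and 2.7 CPM with ADAR siRNA, against 16 CPM with control siRNA. Both genes were close to the control in library 1 and far under it in library 2.

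Some genes lay below the control in both NCI-H1395 knockdown libraries, with library 2 again the lower. IFI44L had 7.33 and 0.646 CPM with ADAR siRNA, against 8.47 CPM with control siRNA. XAF1 had 2.34 and 0.352 CPM with ADAR siRNA, against 3.67 CPM with control siRNA, and BST2 had 4.77 and 1.82 CPM with ADAR siRNA, against 8.31 CPM with control siRNA. The apoptosis gene and the surface protein were thus lowest in library 2. IFI6 had 180.0 and 78.7 CPM with ADAR siRNA, against 241 CPM with control siRNA, and PARP9 had 49.6 and 20.5 CPM with ADAR siRNA, against 60.9 CPM with control siRNA. SAMD9L had 8.33 and 3.99 CPM with ADAR siRNA, against 14.2 CPM with control siRNA. TRIM22 had 25 and 1 counts with ADAR siRNA, against 41 counts with control siRNA, and CMPK2 5 and 1 counts, against 17 counts with control siRNA. Of these genes, LGALS3BP had the libraries closest to each other, with 86.7 and 80.6 CPM with ADAR siRNA, against 149 CPM with control siRNA.

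DDX60 and IFI44 had both knockdown libraries at or above the control. DDX60 had 283 and 204 CPM with ADAR siRNA, against 178 CPM with control siRNA. IFI44 had 78.6 and 62.1 CPM with ADAR siRNA, against 61.5 CPM with control siRNA. IRF7, the factor behind type I interferon genes, had 74.7 and 31.0 CPM with ADAR siRNA, against 35.6 CPM with control siRNA, so library 1 was above and library 2 below, as for ISG15.

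The fit within NCI-H1395 called 0 of the 32 genes by edgeR (0.00417% of all genes), and 0 by DESeq2 (47 of all genes). At an unadjusted p under 0.05, 5 were lower (2.17% of all genes) and 0 higher (3.13%). They were CMPK2, SAMD9L, LGALS3BP, TRIM22 and PARP9. SAMD9L was at -1.19 ± 0.38 (edgeR adjusted p = 0.638) and LGALS3BP at -0.82 ± 0.29 (0.737). In all, 27 of the 32 were below 0 (43.2% of all genes), with a median of -0.42. Without library 1, 6 genes were called lower by edgeR (38 of all genes were called in either direction), with the lone library 2 assumed to vary like the other groups: RSAD2 (-2.99 ± 0.51, adjusted p = 0.00162), IFI27 (-2.55 ± 0.41, 0.000559), XAF1 (-3.34 ± 0.66, 0.00975), IFIT3 (-1.75 ± 0.35, 0.0115), TRIM22 (1 count, against 41 counts with control siRNA, 0.0119) and PARP9 (-1.56 ± 0.35, 0.0409). In the same setting the test between lines called RSAD2, TRIM22 and IFI27, among 38 of all genes. Without library 2, 0 of the 32 genes were called (39 of all genes). The libraries held 20963856 and 14858945 counts and 10.7% and 11.5% of the control's ADAR, and the part of library size in the difference was not tested.

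**Figure D3:**
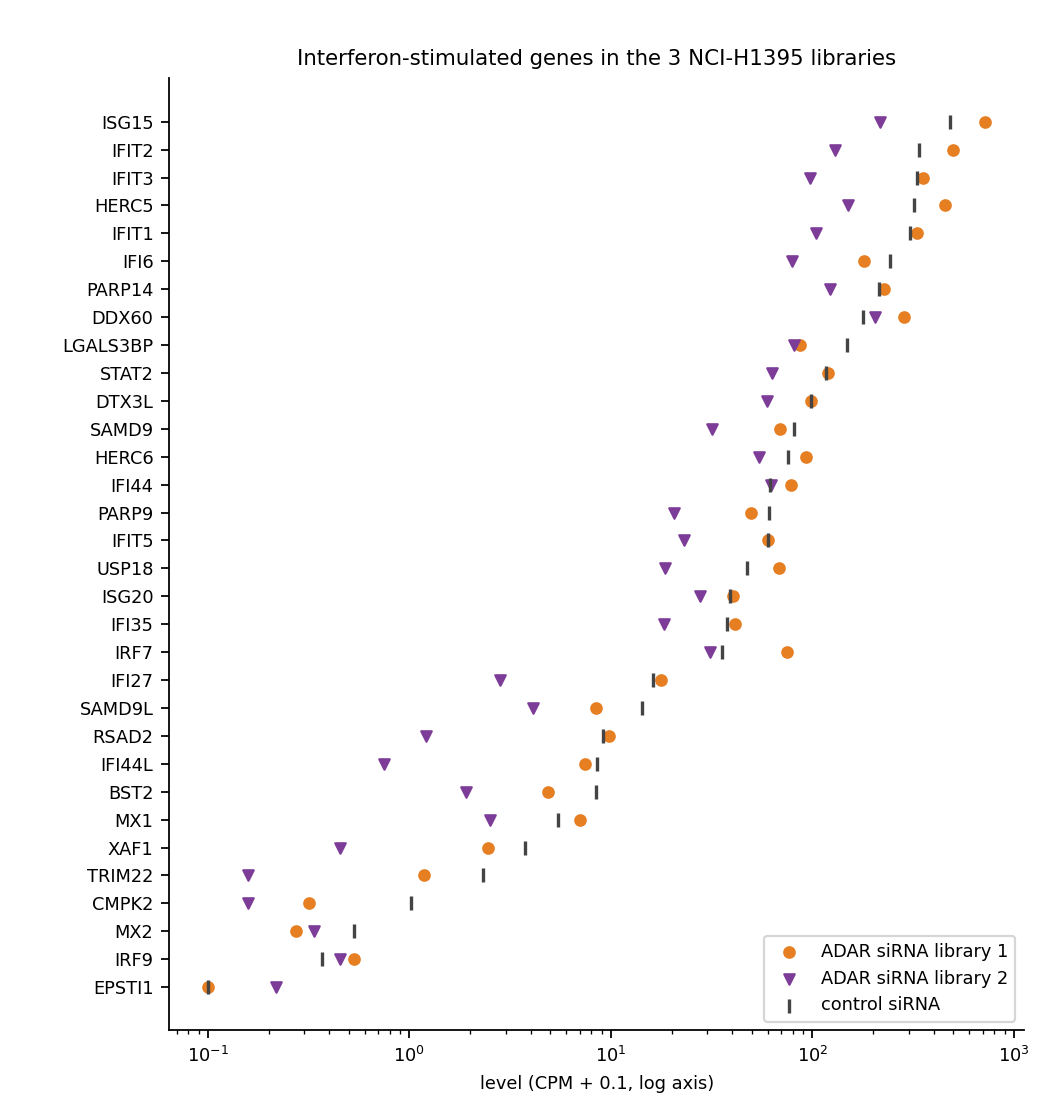
Level of each gene in the 3 NCI-H1395 libraries, in CPM plus 0.1 on a log axis, with genes ordered by the control siRNA library; circles are ADAR siRNA library 1, triangles library 2 and bars the control. Triangles lie left of the circles for most genes, and farthest for IFI44L, RSAD2, TRIM22, IFI27 and XAF1.

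BT-549 had a similar but smaller step between its knockdown libraries. IFI44L had 165 and 77.9 CPM with ADAR siRNA, against 179 CPM with control siRNA, and IFIT1 had 195 and 107 CPM with ADAR siRNA, against 179.8 CPM with control siRNA. MX1 had 208 and 122 CPM with ADAR siRNA, against 213 CPM with control siRNA, and IFIT3 had 127 and 73.1 CPM with ADAR siRNA, against 158 CPM with control siRNA. In these genes library 1 was near the control and library 2 lower. ISG15 had 278 and 209 CPM with ADAR siRNA, against 404 CPM with control siRNA, and IFI6 had 747 and 626 CPM with ADAR siRNA, against 840.4 CPM with control siRNA. LGALS3BP had 47.2 and 29 CPM with ADAR siRNA, against 79.3 CPM with control siRNA. These lay below the control in both libraries. DDX60 had 44.8 and 49.7 CPM with ADAR siRNA, against 38.1 CPM with control siRNA, and MX2 had 27.7 and 27.9 CPM with ADAR siRNA, against 24.7 CPM with control siRNA. Neither of these antiviral genes shared the lower level in library 2.

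Within BT-549, 0 of the 32 genes were called by edgeR (0.00417% of all genes) and 0 by DESeq2 (3 of all genes). At an unadjusted p under 0.05, 2 were lower (1.27% of all genes) and 0 higher (1.82%). They were LGALS3BP (-1.06 ± 0.29, edgeR adjusted p = 1) and CMPK2, which had 15.6 and 11.6 CPM with ADAR siRNA, against 24.8 CPM with control siRNA. In direction, 27 of the 32 were below 0 (42.7% of all genes), with a median of -0.29.

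In AGS the step between the numbered libraries ran the other way. BST2 had 22 and 60.1 CPM with ADAR siRNA, against 36.5 CPM with control siRNA, and IFI44L had 16.1 and 33.5 CPM with ADAR siRNA, against 17.1 CPM with control siRNA. XAF1 had 10.2 and 21.8 CPM with ADAR siRNA, against 16.2 CPM with control siRNA. In all of these library 2 was above the control and library 1 below it. IFI6 had 310.1 and 539 CPM with ADAR siRNA, against 588 CPM with control siRNA, and IFI27 had 198 and 307 CPM with ADAR siRNA, against 314 CPM with control siRNA. ISG15 had 419.6 and 530.0 CPM with ADAR siRNA, against 597 CPM with control siRNA. The abundant membrane genes and ISG15 therefore stood under the control in both libraries. IFIT1 had 221 and 241 CPM with ADAR siRNA, against 164 CPM with control siRNA, and PARP9 had 125 and 150.0 CPM with ADAR siRNA, against 101 CPM with control siRNA. SAMD9 had 91.1 and 87.2 CPM with ADAR siRNA, against 61.1 CPM with control siRNA. These stood above the control in both. HERC6 had 5 and 4 counts with ADAR siRNA, against 0 counts with control siRNA, and HERC5 had 16 and 3 counts with ADAR siRNA, against 6 counts with control siRNA.

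Within AGS, 0 of the 32 genes were called by edgeR (0.00417% of all genes) and 0 by DESeq2 (14 of all genes). At an unadjusted p under 0.05 1 was higher, HERC6 (2.98% of all genes), and 0 lower (2%). In direction, 23 of the 32 were above 0 (49.9% of all genes), with a median of 0.21.

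MDA-MB-231 held the gene with the smallest p-value within any line, MX2, and it was higher. MX2 had 6.78 and 7.87 CPM with ADAR siRNA, against 1.96 CPM with control siRNA (98 and 126 counts, against 35 counts). The log2 change was 1.92 ± 0.43 and did not pass in edgeR (adjusted p = 0.118). DESeq2 called it (1.95 ± 0.48, adjusted p = 0.0225), where 45 of all genes were called. The NOP14 and PCDH libraries of the same line, made without siRNA in the labels, stood at 5.91 and 6.82 CPM, close to the ADAR siRNA libraries. The control siRNA library is thus the lowest of the 5 MDA-MB-231 libraries for MX2. It was also the lowest for the endothelial marker PECAM1, with 9.37 and 7.89 TPM with ADAR siRNA, against 2.21 TPM with control siRNA. The NOP14 and PCDH libraries held 5.69 and 5.41 TPM of PECAM1. The other endothelial marker, VWF, had 1 and 4 counts with ADAR siRNA, against 4 counts with control siRNA. VWF had 3 counts with NOP14, against 2 counts with PCDH. The part of these markers in the MX2 values was not tested. MX1 had 17.8 and 21.8 CPM with ADAR siRNA, against 11.4 CPM with control siRNA, TRIM22 had 8.99 and 7.62 CPM with ADAR siRNA, against 3.53 CPM with control siRNA, and IFI27 had 9.06 and 13.6 CPM with ADAR siRNA, against 5.54 CPM with control siRNA. For these genes too the control siRNA library was lower than the PCDH library, which held 24.2, 11.8 and 10.7 CPM of MX1, TRIM22 and IFI27.

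Other genes of MDA-MB-231 lay below the control in both libraries. IFIT1 had 29.7 and 39.7 CPM with ADAR siRNA, against 55.9 CPM with control siRNA, and IFIT2 had 48.2 and 54.8 CPM with ADAR siRNA, against 74.4 CPM with control siRNA. IFIT3 had 104 and 119 CPM with ADAR siRNA, against 155 CPM with control siRNA, and ISG15 had 50.4 and 72.5 CPM with ADAR siRNA, against 97.5 CPM with control siRNA. RSAD2 had 1.31 and 0.812 CPM with ADAR siRNA, against 3.36 CPM with control siRNA, which are 19 and 13 counts against 60 counts. The knockdown libraries were the lowest of the 5 for IFIT1, IFIT2, IFIT3, ISG15 and RSAD2. CMPK2 had 0 counts in both ADAR siRNA libraries, against 4 counts with control siRNA, which is too few for a fold. BST2, the highest of the genes in this line by TPM, had 142 and 209 CPM with ADAR siRNA, against 147 CPM with control siRNA.

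Within MDA-MB-231, 0 of the 32 genes were called by edgeR (0.0751% of all genes) and 1, MX2, by DESeq2 (45 of all genes). At an unadjusted p under 0.05 edgeR gave 1 higher, MX2 (2.1% of all genes), and 1 lower, CMPK2 (2.75%). In direction, 16 of the 32 were below 0 (44.6% of all genes), with a median of 0.01.

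**Figure D4:**
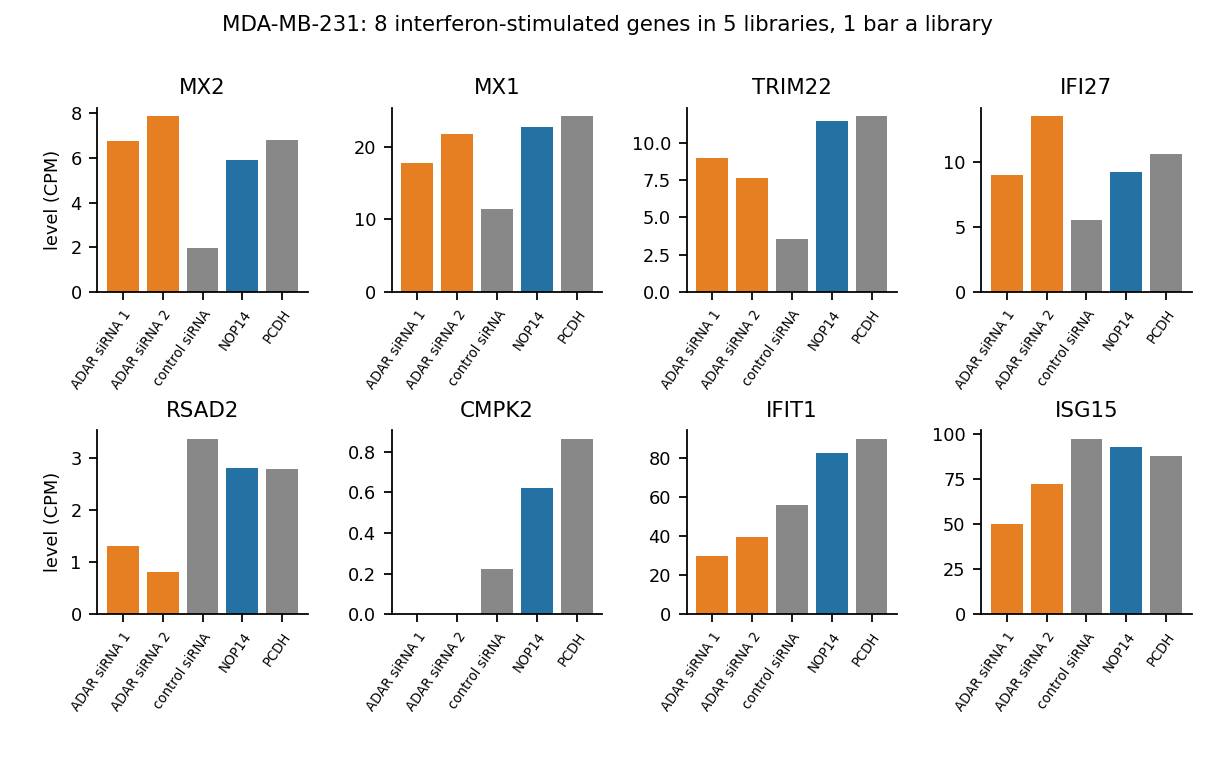
Level in CPM of 8 genes in the 5 MDA-MB-231 libraries, 1 bar a library: ADAR siRNA 1 and 2 (orange), NOP14 (blue) and the controls, control siRNA and PCDH (grey); the 8 genes were picked after their values were seen. MX2 is lowest in the control siRNA library at 1.96 CPM, while RSAD2 and ISG15 are lowest in the ADAR siRNA libraries.

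A direct comparison of ADAR siRNA library 2 with library 1 had line as a term and no control library. It called 0 of the 32 genes by edgeR (0.0293% of all genes) and 0 by DESeq2 (64 of all genes). At an unadjusted p under 0.05, 5 were lower in library 2 (3.18% of all genes) and 0 higher (5.55%). They were IFIT5 (-0.60 ± 0.20, edgeR adjusted p = 0.299), IFIT2 (-0.77 ± 0.30, 0.508), HERC5 (-0.69 ± 0.28, 0.508), SAMD9 (-0.41 ± 0.18, 0.529) and RSAD2 (-1.06 ± 0.44, 0.569). Over the lines 26 of the 32 were below 0 (45.3% of all genes), with a median of -0.27. This fit treats the library number as the same thing in each line, which the labels do not say, and it averages lines that differed in direction. By line, library 2 was under library 1 for 5 of 32 genes in MDA-MB-231 (42.9% of all genes) and for 30 genes in BT-549 (42.8%). In NCI-H1395 it was under library 1 for 30 genes (48.2%), and in AGS for 8 (39.8%). The median differences in these lines, in the same order, were 0.21, -0.50, -1.23 and 0.39 on the log2 scale. RSAD2 was under library 1 in each of the 4 lines, but by only -0.04 in AGS on the log2 scale. Its differences were -0.63 in MDA-MB-231 (0.812 against 1.31 CPM), -1.02 in BT-549 and -3.01 in NCI-H1395. Without BT-549, RSAD2 (-1.14 ± 0.28, edgeR adjusted p = 0.0248) and HERC5 (-0.92 ± 0.24, 0.0462) were called lower in library 2, among 75 of all genes called in that setting.

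**Figure D5:**
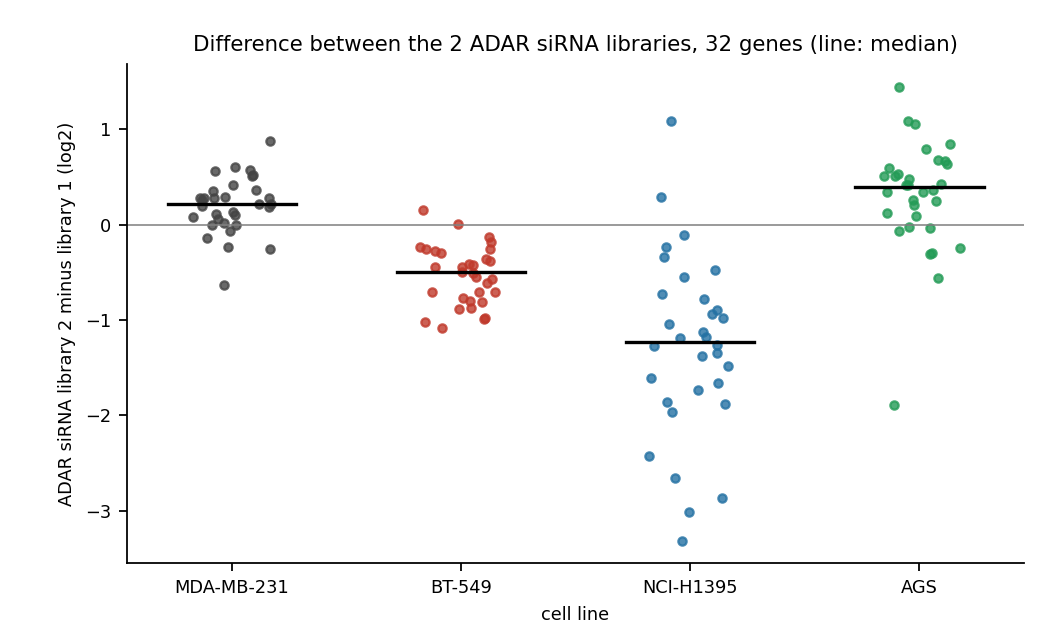
Difference between ADAR siRNA library 2 and library 1 on the log2 scale, 1 point a gene for 32 genes in each cell line; the black line is the median. The median is 0.21 for MDA-MB-231, -0.50 for BT-549, -1.23 for NCI-H1395 and 0.39 for AGS.

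Most of the ligands upstream of these genes had too few counts to test. Of 21 interferon genes, 5 passed the filter and 0 were called over the lines by edgeR. Over the lines 5 were above and 0 below 0, with a median log2 change of 0.95 (42.7% of all genes were below 0). Within NCI-H1395 and within AGS, 5 were above and 0 below 0, with medians of 2.40 and 0.65. Of all genes, 43.2% were below 0 within NCI-H1395 and 49.9% above 0 within AGS. Within BT-549 2 were above and 2 below 0, and within MDA-MB-231 1 was above and 0 below. The NCI-H1395 libraries differed. Of the 21 genes, 5 were above and 1 below the control in library 1, and 3 above and 3 below in library 2. Of all genes, 45.4% and 45.2% were below it. The median of 2.40 within NCI-H1395 also rests on few counts in the control, as the genes below show. IFNB1, the type I interferon first made by sensing cells, had 30 and 5 counts in NCI-H1395 with ADAR siRNA, against 4 counts with control siRNA, and 47 and 50 counts in AGS with ADAR siRNA, against 19 counts with control siRNA. It had 0 counts in all 5 MDA-MB-231 libraries, and 4 and 7 counts in BT-549 with ADAR siRNA, against 12 counts with control siRNA. IFNL1, a type III interferon, had 26 and 0 counts in NCI-H1395 with ADAR siRNA, against 2 counts with control siRNA, and 93 and 190 counts in AGS with ADAR siRNA, against 87 counts with control siRNA. NCI-H1395 library 2, with the lower interferon-stimulated genes, also had fewer IFNB1 and IFNL1 counts than library 1. Against the control, IFNB1 was not lower in library 2 (log2 ratio 0.31), while IFNL1 was at -1.03. In library 1 IFNB1 was at 2.14, where the median of the 32 interferon-stimulated genes was 0.06. The part of the ligands in the levels of these genes was not tested. IFNE, an interferon of epithelia, had more counts in library 2 than in library 1, with 21 and 72 counts in NCI-H1395 with ADAR siRNA, against 4 counts with control siRNA.

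Genes that carry the signal showed no call over the lines by edgeR either. Of 9 receptors and kinases, 7 were above and 2 below 0 (42.7% of all genes were below 0 over the lines), and JAK1 was at 0.25 ± 0.11 (edgeR adjusted p = 0.397) and the interferon gamma receptor chain IFNGR1 at 0.25 ± 0.12 (0.452). Of 10 other factors and feedback genes, 4 were above and 6 below 0, with STAT3 at 0.18 ± 0.11 (0.564). Of 27 further interferon-stimulated genes, 11 were above and 16 below 0, led by PARP12 (-0.28 ± 0.11, 0.336) and SHISA5 (-0.27 ± 0.11, 0.353). The NCI-H1395 library 2 stood out in this list also, with 26 of 27 below the control (45.2% of all genes) and a median of -0.91, against -0.09 in library 1. In the OAS family, OAS1 had 22.7 and 5.81 CPM in NCI-H1395 with ADAR siRNA, against 33.4 CPM with control siRNA, and the 4 genes had medians of -0.31 and -2.42 in libraries 1 and 2.

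NOP14 overexpression left the genes close to PCDH. With 1 library in each arm there is no replicate check and no test, and the intervals below cover counting error only. None of the 32 genes was past 1.5-fold either way with at least 5 CPM in either library, where 0.144% of all genes at that level were. The median log2 ratio was -0.07, and 22 of the 32 were below 0 (48% of all genes). IFI44L had the lowest ratio, with 3.20 CPM with NOP14, against 4.66 CPM with PCDH, a ratio of 0.687 (95% interval 0.505 to 0.928). ISG15 had 93.1 CPM with NOP14, against 87.9 CPM with PCDH, and IFIT1 had 82.2 CPM with NOP14, against 89.5 CPM with PCDH. BST2 had 199.7 CPM with NOP14, against 192 CPM with PCDH, and LGALS3BP had 590.1 CPM with NOP14, against 594 CPM with PCDH. For these abundant genes the arms lay close together. The PCDH library itself differed more from the control siRNA library of the line, with a median log2 ratio of 0.44 and 9 of the 32 genes below 0 (47.1% of all genes), so levels in MDA-MB-231 depend on which control is used.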

How the data were processed

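Poly(A) RNA of 14 libraries was sequenced, per the labels' protocols. Per the submitters' processing notes, the tools were featureCounts 2.0.6, STAR 2.7.11a and fastp 0.23.4, with build hg38. The authors deposited integer counts per gene without normalization. Of 62702 lines, 3 broken lines were not used. Strand use in the counting was not given in the sources used here.

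Groups came from the labels. Genes were kept with filterByExpr, scaled with TMM and tested with robust quasi-likelihood fits in edgeR 4.0.16 (R 4.3.3) with Benjamini-Hochberg adjustment over all genes tested, at 0.05. Over the lines, the ADAR siRNA counts of a line were summed (8 columns, 21944 genes, 3 residual degrees of freedom). Within-line, between-line and control-level contrasts came from 1 fit of 8 groups to 12 libraries (23959 genes, 4 residual degrees of freedom), where a lone control is assumed to vary like the knockdown libraries. Library 2 was compared with library 1 in 8 libraries (20470 genes). CPM used TMM over 14 libraries, log2 ratios a prior count of 2, and TPM the annotated exon lengths. Intervals cover 95% and, like the floor of 3 counts, counting error only. Scripts were tested on simulated data.

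The genes, lists and tests were chosen with earlier results of these data known. Full values are given for genes called in any contrast, control levels included, and for the smallest p-values; others appear by range. Alternatives were no filter, a minimum of 1 CPM, library totals and median-ratio scaling, DESeq2 1.42.0, a replicate block, and each library or line left out.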

Additional observations from a re-analysis of the deposited data

How the results depend on the processing

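Every fit other than the control-level one called 0 of the 32 genes, and these counts moved as follows. With no filter on low counts, 1 gene was called over the lines (LGALS3BP lower) and 1 within MDA-MB-231 (MX2 higher, 107 of all genes). For library 2 against library 1 that setting called 4 (RSAD2, HERC5, IFIT2 and IFIT3 lower, 274 of all genes). DESeq2 called 1 within MDA-MB-231 (MX2, 45 of all genes). Leaving out a line or library gave 0 to 1 genes over the lines, 0 to 6 within NCI-H1395, 0 to 3 for the test between lines and 0 to 2 for library 2 against library 1. Counts under median-ratio scaling, library totals and a minimum of 1 CPM were 0 in all of these fits. Over all genes the fit over the lines called 4, against 676 by DESeq2, 394 with no filter and 0 with a minimum of 1 CPM. The control-level count of 23 was 25 with no filter, 28 with a minimum of 1 CPM and 28 by DESeq2.

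By correlation of same-numbered libraries' deviations across genes, the 3 line pairs among BT-549, NCI-H1395 and AGS had Pearson's r of 0.170 to 0.387 and the 3 with MDA-MB-231 had -0.08 to 0.03, so the numbers were not taken to pair the samples over the 4 lines. The replicate block, a term for the library number, gave 2 calls within MDA-MB-231 (MX2 higher, RSAD2 lower; 187 of all genes), 2 within NCI-H1395 (SAMD9L and BST2 lower; 149 of all genes), 3 between lines (TRIM22, IFI27 and MX2; 210 of all genes) and 31 for control levels, and 0 over the lines, within BT-549 and within AGS.

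Scaling turned the direction of small medians: with library totals the median log2 ratio was 0.086 in MDA-MB-231 library 1 and 0.068 in AGS library 1, and with median-ratio scaling it was 0.031 in AGS library 1. In NCI-H1395 library 2 it stayed between -1.26 and -1.12 under all settings tried. Each control level rests on 1 library, and genes with few counts (IRF9, and HERC6 in AGS) cannot be ranked at this depth. The cause of these shifts was not tested.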
